A study of Rattus norvegicus with 2 samples.

Results

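The semaphorin signalling genes of the rat hypothalamus were described here before and after the onset of puberty. The set was taken by name, as all genes called Sema3 to Sema7, Plxn, Nrp1 or Nrp2 that have transcripts in the deposited mRNA table. It comprised 31 of the 22777 genes of that table, namely 20 semaphorins, 9 plexins and 2 neuropilins. The RNA came from hypothalami of Sprague Dawley rats at 2 stages, prepubertal (postnatal day 25) and pubertal (postnatal day 35, with vaginal opening taken as the sign of puberty). No rat was given a treatment or carried a transgene according to the labels. The series' design gives 3 rats per stage, while the tables carry a single value for each stage. The sources used here do not say whether RNA or reads of the rats were pooled, and each stage counts as 1 library. No difference between the stages therefore has a replicate check, and no test between the stages was possible.

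Semaphorins are guidance proteins that steer growing axons and migrating cells, and in the adult brain they act on synapses, vessels and myelin. Class 3 semaphorins are secreted, classes 4, 5 and 6 span the membrane, and semaphorin 7A is held by a lipid anchor. Plexins are the receptors that carry the signal into the cell, where their cytoplasmic part acts on small GTPases. Neuropilins have a short cytoplasmic tail and bind the class 3 semaphorins together with an A-type plexin. In the hypothalamus the system is known for guiding the neurons that secrete gonadotropin releasing hormone (GnRH) from the nose into the brain, and for acting on their endings at the median eminence.

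All 31 genes were expressed, each with an FPKM of at least 1 in at least 1 library. FPKM divides the sequenced fragments of a transcript by its length and by the mapped fragments of the library, so it can be compared between genes of different length. Values of the transcripts of a gene were summed. The members spanned 1.35 to 111 FPKM before puberty and 1.22 to 71.5 FPKM at puberty. Of the 31 genes, 23 reached 5 FPKM and 15 reached 10 FPKM in at least 1 library. Their order changed little, with a Spearman correlation of 0.979 between the levels in the 2 libraries over 31 genes that share both libraries.

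Most members were lower in the pubertal library at the deposited scaling, and most lay below the median expressed gene under each scaling tried. The log2 ratio used throughout is log2 of (pubertal FPKM + 1) over (prepubertal FPKM + 1). It was negative for 26 members (83.9%) and positive for 5, against 40.4% of all 22777 genes negative and 38.9% positive, the remainder being equal in both libraries. Among the 14029 genes with at least 1 FPKM in either library, hereafter expressed genes, 51.1% were lower and 48.9% were higher. The median log2 ratio was -0.23 for the members and -0.01 for the expressed genes, a difference of -0.22. After scaling both libraries to the same level of Actb, a gene for cytoplasmic actin that was itself lower at puberty (763 and 576 FPKM, log2 ratio -0.40), the median of the expressed genes became 0.36, and 8 members were then lower and 23 higher, while 27 of the 31 lay below the median expressed gene. Gapdh, another reference gene, was higher at puberty (1839 and 2012 FPKM, log2 ratio 0.13), and after scaling to equal Gapdh the median of the members was -0.34, that of the expressed genes -0.12, and 29 members were lower and 2 higher. Most group medians below are therefore also given with equal Actb, the scaling that turned signs, or against the median expressed gene. The summed FPKM of the members was 419 before puberty and 326 at puberty, 77.9% of the former value.

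The differences were small for each gene. At least 1.5-fold in FPKM + 1, only Sema4d and Sema6a were lower, 2 of 31, where 1.86% of all genes and 2.65% of expressed genes were, and 0 members were higher, where 1.43% and 2.0% were. Both calls ended with equal Actb, where the log2 ratios of Sema4d and Sema6a were -0.23 each, and that of Sema4d ended with its most abundant transcript alone. Sema6a was just inside this limit and the next gene was Plxna4a with a log2 ratio of -0.47. At a log2 ratio of 0.32 or more in size, 11 members were lower and 1 was higher, against 8.04% and 5.99% of all genes, and 11.3% and 8.07% of expressed genes. At least 2-fold, 0 members were lower or higher, against 0.373% and 0.307% of all genes, and 0.606% and 0.499% of expressed genes.

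**Figure D1:**
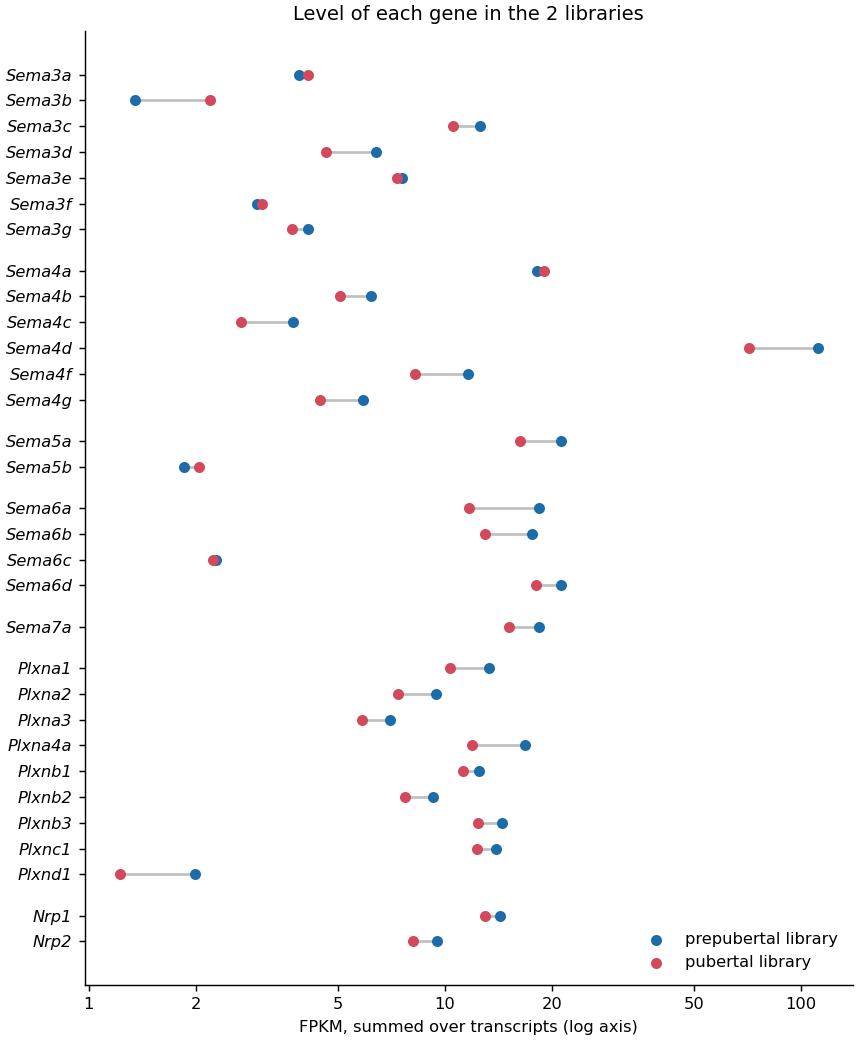
FPKM of each of the 31 genes (log axis) in the prepubertal (blue) and the pubertal (red) library, 1 point per library, ordered by family, with no error because there is 1 library per stage. For 26 genes the pubertal point lies to the left, and after scaling to equal Actb this holds for 8. Sema4d stands far to the right of the others in both libraries, at 111 and 71.5 FPKM.

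The precision of each value was estimated from the number of fragments behind it. The low FPKM of single-transcript genes fell on whole multiples of the value of 1 fragment, which gave 20700000 fragments for the prepubertal and 16200000 for the pubertal library, 1.28 times as many before puberty. The members had between 63 and 4478 fragments in a library. The 95% counting interval of the FPKM ratio (pubertal over prepubertal, without pseudocount) is exact for genes of 1 transcript and approximate for sums over several, where each transcript's fragments set its error. It lay below 1 for 21 members, above 1 for 1 member and spanned 1 for 9. The shares over 13966 expressed genes with such an interval were 23.4%, 19.3% and 57.3%. Intervals are narrower for genes with more fragments. They cover counting error only, not the spread between rats, the scaling of the libraries or copies made by PCR.

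**Figure D2:**
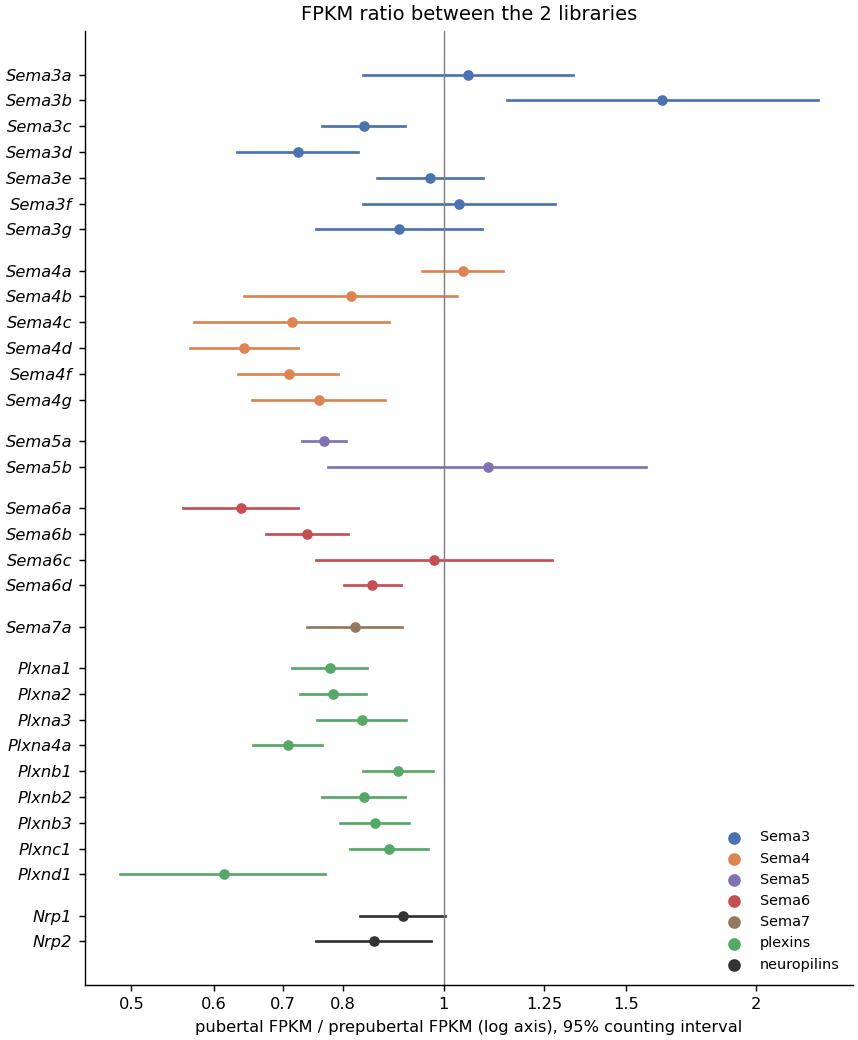
Ratio of pubertal to prepubertal FPKM of each gene (log axis), points coloured by family, bars showing the 95% counting interval, which leaves out the spread between rats. The bars of all 9 plexins lie below 1 at the deposited scaling, although scaling to equal Actb would multiply each ratio by 1.32. Of the class 3 semaphorins 2 bars lie below 1 and 1 (Sema3b) above.

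Among the ligands, the class 3 semaphorins had a median log2 ratio of -0.04, or -0.03 relative to the median expressed gene. Of the 7, 4 were lower and 3 were higher in the pubertal library, and after scaling to equal Actb the median was 0.32. Sema3a, which repels axons and is needed for the GnRH neurons to reach the brain, was at 3.90 FPKM before puberty and 4.12 FPKM at puberty. The ratio of 1.06 had a counting interval of 0.836 to 1.33. Sema3f, which binds neuropilin 2, was at 2.97 and 3.07 FPKM, and Sema3e, which can bind plexin D1 without a neuropilin, at 7.57 and 7.34 FPKM. For these 3 ligands the counts of fragments did not separate the libraries.

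Sema3c and Sema3d were lower in the pubertal library at the deposited scaling. Sema3c, which acts in the growth of vessels and of the heart's outflow tract, was at 12.6 FPKM before puberty and 10.5 FPKM at puberty, a ratio of 0.838 with a counting interval of 0.764 to 0.918. Sema3d was at 6.42 and 4.65 FPKM, a ratio of 0.723 with an interval of 0.633 to 0.826, and had the lowest log2 ratio of its class, -0.39. Sema3g, a ligand made by vessels, was at 4.12 and 3.73 FPKM. Sema3b was the single member whose counting interval lay above 1. It was at 1.35 FPKM before puberty (63 fragments) and 2.18 FPKM at puberty (80 fragments), a ratio of 1.62 with an interval of 1.15 to 2.29 and a log2 ratio of 0.44, at or above that of 98.6% of the expressed genes of its length class. Sema3b had the lowest prepubertal level of all 31 genes. Sema3b and Sema3g, like Sema5b and Sema6c below, were named after their values were seen.

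The 13 semaphorins of classes 4 to 7 had a median log2 ratio of -0.33, which is also -0.33 relative to the median expressed gene. At the deposited scaling 11 of the 13 (84.6%) were lower in the pubertal library, against 83.9% of all members and 51.1% of expressed genes. Relative to the median of their length class 10 of the 13 were lower, with a median of -0.26. The 13 genes held 61.5% of the summed FPKM of all members before puberty and 58.0% at puberty. The class 4 median was -0.35 and the class 6 median was -0.31. Under scaling to equal Actb these became -0.029 and 0.069, which is -0.39 and -0.29 relative to the median expressed gene under that scaling.

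Sema4d, the ligand of plexin B1, which also inhibits the maturation of oligodendrocytes, was the most abundant member in each library. It was at 111 FPKM before puberty and 71.5 FPKM at puberty. The ratio of 0.642 had a counting interval of 0.569 to 0.724, and the log2 ratio was -0.63. Without the pseudocount the ratios of Plxnd1 (0.614) and Sema6a (0.637) were below that of Sema4d, and after centring by length class Sema6a (-0.63) was below Sema4d (-0.60). Only 1.21% of the expressed genes of its length class had a log2 ratio at or below it.

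The sum for Sema4d rests on 3 listed transcripts, all lower in the pubertal library at the deposited scaling. A short transcript of 455 nt was at 57.3 FPKM (237 fragments) and 39.3 FPKM (130 fragments), a ratio of 0.687 with an interval of 0.550 to 0.855, and made up 51.4% and 54.995% of the sum. The transcript of 2610 nt was at 41.5 FPKM (2020 fragments) and 25.4 FPKM (970 fragments), a ratio of 0.613. The longest, of 3989 nt, was at 12.7 and 6.79 FPKM, a ratio of 0.536. FPKM of a transcript not much longer than the fragments, about 255 and 250 nt here, depends strongly on the length correction. With this most abundant transcript alone, Sema4d had a log2 ratio of -0.53 and was not past 1.5-fold. Without transcripts under 1000 nt, a choice made after the data were seen, Sema4d was at 54.1 and 32.2 FPKM with a log2 ratio of -0.73, and it remained the most abundant member in both libraries.

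The other class 4 genes except Sema4a were lower at puberty at the deposited scaling. Sema4f, a semaphorin of synapses, was at 11.6 and 8.25 FPKM, a ratio of 0.709 with a counting interval of 0.634 to 0.792. Sema4g was at 5.87 and 4.45 FPKM, a ratio of 0.758 with an interval of 0.654 to 0.878. Sema4b, which binds a scaffold protein of the postsynapse, was at 6.22 and 5.06 FPKM, and its interval of 0.642 to 1.03 included 1. Sema4c, a ligand of plexin B2, was at 3.74 and 2.67 FPKM, with its transcript of 2956 nt at 2.09 and 1.58 FPKM, that of 4189 nt at 1.65 and 1.09 FPKM and that of 266 nt listed at 0 in both libraries. Sema4a, known for its role in the retina and in immune cells, was at 18.1 and 18.9 FPKM with an interval of 0.952 to 1.14, and with this it moved from rank 6 to rank 2 in level among the members.

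Sema6a, which binds plexins A2 and A4 and is known from oligodendrocytes and boundary cap cells, was the second gene past 1.5-fold. It was at 18.4 FPKM before puberty and 11.7 FPKM at puberty. The ratio of 0.637 had a counting interval of 0.561 to 0.723, the log2 ratio was -0.61, and the rank in level went from 5 to 11. Its transcripts did not move alike. Those of 1815 nt (10.5 and 6.41 FPKM) and 3096 nt (5.47 and 2.89 FPKM) were lower at puberty, with ratios of 0.609 and 0.530 whose counting intervals, up to 0.736 and 0.650, lay below 1. The transcript of 2931 nt was at 2.21 and 2.42 FPKM, a ratio of 1.10 with an interval of 0.836 to 1.43, and its share of the gene was 11.99% and 20.6%. The transcript of 3018 nt was at 0.197 FPKM (11 fragments) before puberty and listed at 0 at puberty. How fragments that fit several transcripts were shared between them was set by the authors' estimation and cannot be checked from the tables.

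The remaining class 6 genes had smaller differences. Sema6b was at 17.5 and 12.95 FPKM, a ratio of 0.738 with a counting interval of 0.674 to 0.808. Sema6d, known for axon crossing at the optic chiasm, was at 21.2 and 18.1 FPKM with a ratio of 0.853 and an interval of 0.801 to 0.909. Sema6c was at 2.28 and 2.23 FPKM, the sum of 2 transcripts. That of 3181 nt was at 1.95 and 2.23 FPKM, a ratio of 1.15 whose interval of 0.873 to 1.502 spanned 1, and that of 3277 nt was at 0.329 FPKM (21 fragments) before puberty and listed at 0 at puberty.

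**Figure D3:**
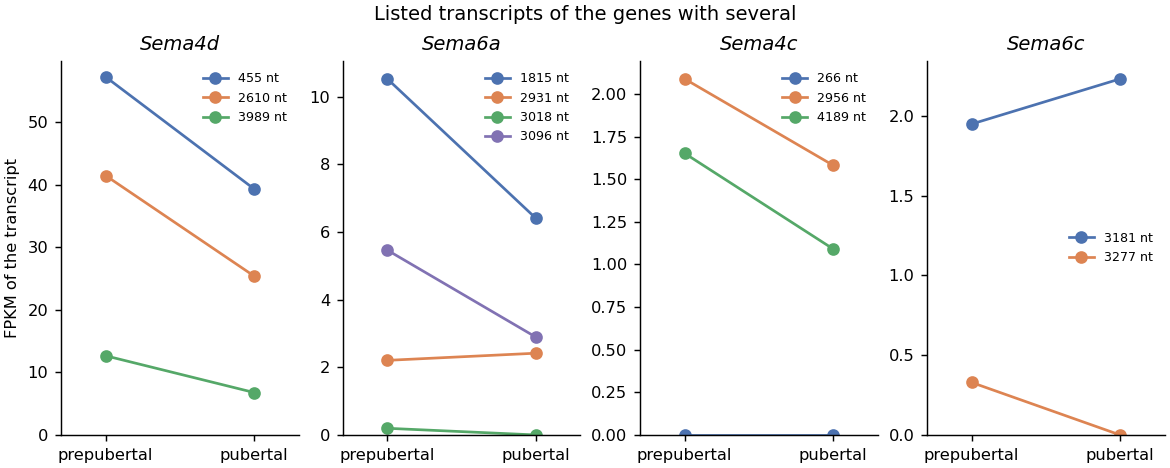
FPKM of each listed transcript in the prepubertal and the pubertal library for the 4 genes with several transcripts (linear axes from 0, a scale for each gene, 1 library per point). The 3 Sema4d lines run downwards, while in Sema6a the 2931 nt line is level (2.21 and 2.42 FPKM) and in Sema6c the 3277 nt line ends at a listed 0.

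The class 5 genes carry thrombospondin repeats and bind proteoglycans. Sema5a, a ligand of plexin B3, was at 21.1 FPKM before puberty and 16.2 FPKM at puberty. With 4478 and 2685 fragments it was the most deeply covered member, and its ratio of 0.767 had a narrow counting interval of 0.731 to 0.804. Sema5b was at 1.85 and 2.04 FPKM with an interval of 0.774 to 1.57. Sema7a, which binds plexin C1 and integrin beta 1 and has been tied to GnRH neurons and to the plasticity of the median eminence, was at 18.4 and 15.1 FPKM. The ratio for Sema7a was 0.821 with an interval of 0.738 to 0.912.

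All 9 plexins were lower in the pubertal library at the deposited scaling and all 9 lay below the median expressed gene, with a median log2 ratio of -0.23, while the plexin median was 0.13 after scaling to equal Actb. All 9 were in the length class of 4468 nt and longer, where 76.9% of the expressed genes were lower. Among the A-type plexins, the partners of neuropilins and receptors of class 6 semaphorins, Plxna4a was at 16.8 FPKM before puberty and 11.9 FPKM at puberty. Its ratio was 0.708 with a counting interval of 0.655 to 0.763, and 4.92% of expressed genes of its length class had a log2 ratio at or below its value. That share was 13.1% for Plxna1, 15.3% for Plxna2 and 30.1% for Plxna3. Among all plexins it was highest for Plxnb1, at 48.3%. Plxna1 was at 13.3 and 10.4 FPKM with a ratio of 0.777. Plxna2 was at 9.44 and 7.38 FPKM with a ratio of 0.782. Plxna3, a receptor of Sema3f, was at 7.03 and 5.86 FPKM with a ratio of 0.834 and an interval of 0.756 to 0.920. The intervals of the 4 A-type plexins all ended below 1, that of Plxna4a being the lowest.

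The B-type plexins, which couple to RhoA through guanine nucleotide exchange factors, had a median log2 ratio of -0.21 against -0.33 for the A-type. Plxnb1, the receptor of Sema4d, was at 12.5 and 11.3 FPKM with a ratio of 0.904. Plxnb2 was at 9.23 and 7.73 FPKM with a ratio of 0.838, and Plxnb3, known from oligodendrocytes, at 14.5 and 12.4 FPKM with a ratio of 0.858. Plxnc1, the receptor of Sema7a, was at 13.9 and 12.3 FPKM with a ratio of 0.886. Plxnd1, a receptor of vessels and of some neurons, was the least abundant receptor at 1.99 FPKM (241 fragments) and 1.22 FPKM (116 fragments), a ratio of 0.614 with an interval of 0.487 to 0.769. Whether the A-type and B-type plexins differed was not tested, since genes are not replicates.

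The neuropilins, which also bind vascular endothelial growth factor (VEGF), had a median log2 ratio of -0.16, and 0.21 after scaling to equal Actb. Nrp1 was at 14.2 FPKM before puberty and 12.99 FPKM at puberty, a ratio of 0.913 with a counting interval of 0.830 to 1.003 that included 1. Nrp2 was at 9.51 and 8.15 FPKM, a ratio of 0.857 with an interval of 0.754 to 0.973.

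Ligands were then set beside their receptors in 16 pairs known from the field. The pairs are not independent, since they use 22 members of which 8 are in several pairs, Sema3a and Plxna4a in 3 each. Both partners were lower in the pubertal library in 11 pairs at the deposited scaling, where 83.9% of the members were lower, and in 2 pairs with equal Actb. In the pair Sema4d and Plxnb1 the ligand had a log2 ratio of -0.63 and the receptor -0.13. In the pair Sema6a and Plxna4a the values were -0.61 and -0.47, and in Sema7a and Plxnc1 they were -0.27 and -0.16. The 5 other pairs were those with Sema3a or Sema3f, whose ligands had log2 ratios of 0.06 and 0.04. Sema3e and its receptor Plxnd1 were unlike in size, at -0.04 and -0.43.

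Longer transcripts had lower log2 ratios across the whole table, and the members were long. Over the expressed genes, the median log2 ratio went from 0.08 in the shortest to -0.13 in the longest of 10 length classes, and the Spearman correlation of length and log2 ratio was -0.24 over 14029 genes of the same 2 libraries. The members had a median length of 4189 nt against 1999 nt for the expressed genes. In the class of 4468 nt and longer, 14 of 14 members were lower, where 76.9% of the 1402 genes were, with a median of -0.23 against -0.13. Relative to the median of their own length class, 24 of the 31 members were lower and their median log2 ratio was -0.11, while that of the class 3 semaphorins was 0.05, that of class 4 was -0.29 and that of the plexins was -0.10. The correlation of length and log2 ratio was -0.26 within the 31 members.

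**Figure D4:**
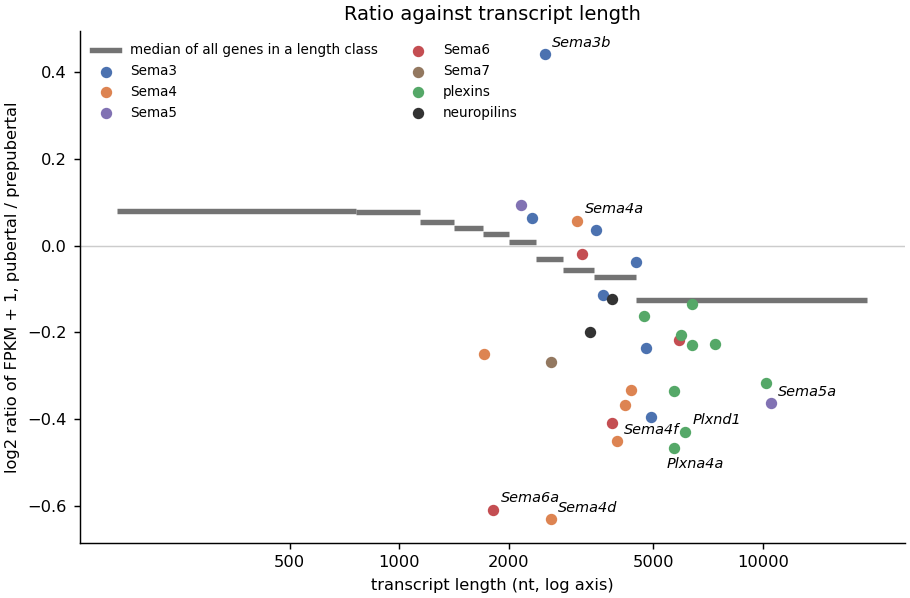
Log2 ratio of FPKM + 1 (pubertal over prepubertal) against transcript length in nt (log axis) for the 31 genes, coloured by family, with grey bars for the median of all expressed genes in each of 10 length classes. The grey bars step down from 0.08 to -0.13, and Sema4d and Sema6a lie well under the bar of their length; after scaling to equal Actb all points and bars would sit higher, the median expressed gene at 0.36.

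The other genes of the pathway were taken as lists. Of 31 plexin effectors and their targets (GTPases, kinases, MICAL oxidases and CRMP proteins), 24 were lower and 7 higher at the deposited scaling, the median was -0.17 (0.20 with equal Actb), and 0 were past 1.5-fold in either direction. The most abundant were Cfl1 (931 and 924 FPKM), which severs actin, and Dpysl2 (486 and 484 FPKM), which carries the Sema3a signal to microtubules. Of 13 other binding partners of semaphorins and plexins, 9 were lower and 3 higher with a median of -0.09 (0.12 with equal Actb), and 1 was listed at 0 in both libraries. Trem2, a microglial receptor, was past 1.5-fold with 5.72 and 9.33 FPKM. Of 8 VEGFs and VEGF receptors, which share the neuropilins, 2 were lower and 6 higher with a median of 0.09, and Kdr, the main VEGF receptor of endothelium, was past 1.5-fold with 2.60 and 1.38 FPKM.

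Other guidance families were described in the same way. Slits and their Robo receptors had a median log2 ratio of -0.12, 0.23 with equal Actb and 0.0091 after centring by length class (6 lower and 1 higher of 7 as deposited, and 2 of 7 below their length class), with Robo2 at 14.7 and 13.5 FPKM and Robo1 at 13.9 and 12.4 FPKM. Netrins and netrin receptors had a median of -0.10, and 0.27 with equal Actb (6 lower and 4 higher of 10), with the netrin receptors Neo1 at 27.9 and 23.7 FPKM and Unc5c at 12.7 and 11.7 FPKM. Ephrins and Eph receptors had a median of -0.19, and 0.14 with equal Actb (15 lower and 7 higher of 22), with Efna5, an ephrin of topographic maps, past 1.5-fold at 4.36 and 2.55 FPKM, with a counting interval of the ratio of 0.314 to 1.05 that spanned 1. After centring by length class the medians were -0.16 for ephrins and Eph receptors, -0.11 for the plexin effectors and -0.11 for the members, so the members were not the lowest group there. No test was made between these families and the members.

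**Figure D5:**
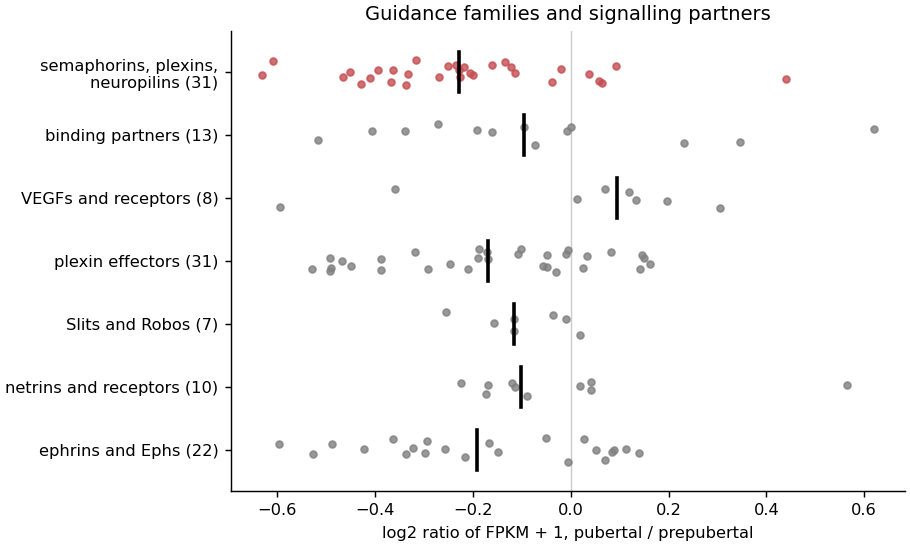
Log2 ratio of FPKM + 1 (pubertal over prepubertal) of single genes, 1 point per gene, in the 31 semaphorin, plexin and neuropilin genes (red) and in 6 other lists (grey), with black bars for the medians and the number of genes in brackets. The bar of the members is at -0.23 and those of the other lists lie between -0.19 and 0.09, but after centring by length class the members' bar (-0.11) would not be the lowest, since that of the ephrins and Ephs would be at -0.16; after scaling to equal Actb the members' bar would be at 0.14 and the median expressed gene at 0.36.

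Markers of cell types and regions also differed between the libraries. In whole tissue, fewer cells of a type and less RNA per cell cannot be told apart. Of 13 hypothalamic markers none was listed at 0, and their summed FPKM was 2666 before puberty and 4063 at puberty. Pmch (1675 and 2723 FPKM) and Oxt (411 and 686 FPKM) made up most of this difference, and 4 of the 13 were lower at puberty. The sum of 8 telencephalic markers was 113 and 54.6 (median log2 ratio -0.54), with CAMK2A at 59.6 and 24.8 FPKM, Slc17a7 at 26.2 and 12.8 FPKM and Neurod6 at 5.08 and 2.36 FPKM, that of 6 thalamic markers 182 and 142 (-0.42), with Tcf7l2 at 19.9 and 12.2 FPKM and Gbx2 at 4.29 and 2.24 FPKM, and that of 7 fibroblast markers 80.8 and 53.7 (-0.33), with Col1a1 at 9.57 and 2.93 FPKM, Slc6a13 at 8.72 and 3.71 FPKM and Col1a2 at 15.8 and 8.76 FPKM. The oligodendrocyte sum (9 genes) was 12620 and 13564 with a median of -0.15, and the sum of 6 markers of their progenitors 182 and 149 with a median of -0.17, with Gpr17 at 38.2 and 21.1 FPKM. Medians were -0.13 for immature neurons, -0.16 for striatum, -0.10 for endothelium, -0.12 for astrocytes, 0.01 for choroid plexus, 0.20 for microglia, 0.21 for hypothalamus, 0.27 for pituitary and 0.63 for red blood cells. The pituitary list held the hormone genes Prl, listed at 0 before puberty and at 3.40 FPKM at puberty, and Gh1, at 0.872 and 4.09 FPKM with a ratio of 4.69 and a counting interval of 2.29 to 10.6. The remaining markers past 1.5-fold were Gja1 of astrocytes (106 and 66.3 FPKM), of immature neurons 2 of the 3 genes listed as Marcksl1 (9.92 and 4.56 FPKM, and 10.02 and 4.69 FPKM, while the third was at 148 and 121 FPKM), which may share reads, and Hbb (2130 and 5898 FPKM), Hba1, Hba2 and Alas2 of red blood cells. The immature neuron list counts Marcksl1 3 times among its 8 genes. Of these 8, 5 were lower and 3 higher at the deposited scaling, and their summed FPKM was 1248 and 1296. Of the 6 astrocyte markers, 3 were lower and 3 higher, with a summed FPKM of 1228 and 1072. Of these 14 medians, with equal Actb, 7 turned from negative to positive, 5 were positive under both scalings, and those of the telencephalic (-0.26) and thalamic (-0.082) markers were negative under both. The part of these markers in the values of the semaphorins and their receptors was not tested.

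The starts of the genes were examined for what the members share. All 31 members were found by name in the RefSeq rat annotation (GRCr8), and 23 had a window of 250 bases before to 50 bases after the start. The median GC content of these windows was 61.0%, against 58.7% for the windows of genes of the mRNA table. The GC box GGGCGG, searched on both strands, was in 13 of 23 windows (56.5%), in 52.3% of the windows of genes of the mRNA table and in 33.1% of all 33469 windows. CCAAT was in 6 windows (26.1%, against 36.8% of the windows of genes of the mRNA table). TATAAA was in 0 (9.62%), the E-box CACGTG in 2 (8.05%), TGACGTCA, the cAMP response element, in 0 (2.57%) and the palindromic oestrogen response element in 0 (0.0137%). The shares in brackets are those of the windows of genes of the mRNA table, and a match is a match of letters only. The GC box and CACGTG were about as frequent as in these.

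Plxnc1 and Plxnb3, plexins of like level (13.9 and 14.5 FPKM before puberty) and like ratio (0.886 and 0.858), show how unlike the starts of the members were. The window of Plxnc1 (GRCr8 chr7:31430556-31430855, minus strand) had 4 GC boxes, in capitals, and 30 CpG pairs. That of Plxnb3 (GRCr8 chrX:156646624-156646923, plus strand) had 0 GC boxes, 2 CpG pairs and long runs of pyrimidines. Both are from RefSeq and read 5′ to 3′ on the strand of the gene.
Plxnc1: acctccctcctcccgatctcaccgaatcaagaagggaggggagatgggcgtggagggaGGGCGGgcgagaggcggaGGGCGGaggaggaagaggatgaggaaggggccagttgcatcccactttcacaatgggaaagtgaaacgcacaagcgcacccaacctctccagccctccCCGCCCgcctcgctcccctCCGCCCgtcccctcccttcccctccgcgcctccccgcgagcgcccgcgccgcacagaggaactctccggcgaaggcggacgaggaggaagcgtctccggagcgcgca
Plxnb3: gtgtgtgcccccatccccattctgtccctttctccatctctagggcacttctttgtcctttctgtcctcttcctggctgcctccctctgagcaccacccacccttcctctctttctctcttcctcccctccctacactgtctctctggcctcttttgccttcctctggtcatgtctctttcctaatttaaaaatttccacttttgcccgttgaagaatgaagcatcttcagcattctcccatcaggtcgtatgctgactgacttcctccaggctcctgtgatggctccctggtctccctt

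Of the 23 windows, 1 overlapped a deposited lncRNA outside repeats. The first 45 bases of TCONS_00056864, a lncRNA of 531 nt of the locus XLOC_014159, matched exactly the opposite strand of the first 45 bases of the Plxna3 window (GRCr8 chrX:157266857-157267156, plus strand), which lie 205 to 250 bases before the start of Plxna3. The lncRNA thus starts upstream of Plxna3 and is read away from it, and the RefSeq neighbour on that side is LOC102548378, a lncRNA gene. An opposite-strand match of at least 25 bases outside repeats was found in 195 of the 33469 windows (0.583%). A same-strand match of this kind was found in 429 of them (1.28%) and in 0 of the 23 windows of members. The shared bases are in capitals, and the sequences are reverse complements of each other there.
Plxna3: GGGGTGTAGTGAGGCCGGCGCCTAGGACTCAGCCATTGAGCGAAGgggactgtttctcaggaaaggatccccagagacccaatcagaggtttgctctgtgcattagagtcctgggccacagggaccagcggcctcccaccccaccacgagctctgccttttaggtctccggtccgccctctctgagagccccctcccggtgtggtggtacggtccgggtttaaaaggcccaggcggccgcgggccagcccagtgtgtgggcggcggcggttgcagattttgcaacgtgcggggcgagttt
TCONS_00056864, bases 1 to 105: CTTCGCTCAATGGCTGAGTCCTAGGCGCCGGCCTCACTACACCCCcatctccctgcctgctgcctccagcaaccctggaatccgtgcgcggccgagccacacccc
TCONS_00056864 was at 2.11 FPKM before puberty (12 fragments) and 4.19 FPKM at puberty (19 fragments). The ratio of 1.99 had a counting interval of 0.917 to 4.49, so a difference was not detectable at this depth. Plxna3 itself, on the other strand, had 1034 and 674 fragments.

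The window of Sema6b (GRCr8 chr9:1047693-1047992, minus strand) shared stretches of at least 25 bases with 24 deposited lncRNAs, on either strand. Together these stretches covered 125 bases, within bases 2 to 129. How many of them each single lncRNA shared was not counted. In these lncRNAs no shared stretch of 25 bases was free of bases marked as repeats. Of all windows, 6.56% had such a match with or without repeats. The shared bases are in capitals.
Sema6b: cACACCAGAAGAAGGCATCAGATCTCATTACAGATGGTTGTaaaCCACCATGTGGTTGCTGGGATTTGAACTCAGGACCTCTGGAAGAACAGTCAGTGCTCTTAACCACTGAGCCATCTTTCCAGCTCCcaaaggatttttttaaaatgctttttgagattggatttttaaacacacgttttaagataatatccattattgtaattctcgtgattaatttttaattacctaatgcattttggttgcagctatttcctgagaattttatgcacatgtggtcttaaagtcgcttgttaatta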

How the data were processed

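Hypothalamic RNA of prepubertal and pubertal rats was measured with strand-specific libraries depleted of ribosomal RNA. After alignment by TopHat and transcript assembly by Scripture and Cufflinks, the authors deposited FPKM estimated by Cuffdiff (Cufflinks and Cuffdiff 2.1.1 per the labels). The labels name the build Rnor_5.0 and the methods a later annotation, so no coordinates of the files are given. Columns of the authors' own comparison (ratios, p-values) were not used.

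FPKM was summed over the transcripts of each gene, and log2((pubertal + 1) / (prepubertal + 1)) was computed with a pseudocount of 1. With 1 library per stage, differences are descriptions with no test. A gene past 1.5-fold in FPKM + 1 was counted and set beside the share of all genes. Depth was derived from genes of 1 transcript and at least 1000 nt, whose FPKM times effective length fell within 0.05 of a whole fragment number for 94.3% (prepubertal) and 94.2% (pubertal) of values up to 10 fragments. Ratio intervals are exact binomial (Clopper-Pearson) at 95%. For genes of several transcripts they use the number of fragments with the same relative error as the summed FPKM, and are approximate. The step search and the intervals were tested on simulated data. Fragments of genes with several transcripts are sums of estimates.

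Members with at least 5 FPKM in either library or past 1.5-fold were named, then those in known ligand and receptor pairs, and in other lists genes past 1.5-fold or, outside the marker lists, the most abundant. The members and lists were chosen with earlier results of these data known. Alternatives were a pseudocount of 0.1, a filter on FPKM, scaling to equal medians or equal Actb, the most abundant transcript, the FPKM of the comparison table, length-centred ratios and other folds. Scripts ran in Python 3.11.15 (pandas 2.3.3, numpy 2.4.6, matplotlib 3.10.9, scipy 1.17.1).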

Additional observations from a re-analysis of the deposited data

How the results depend on the processing

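The signs of all 31 members were kept with a pseudocount of 0.1, with a filter of 1 FPKM, with equal medians (a factor of 1.004 on the pubertal library) and in the FPKM of the comparison table, while 30 kept it with the most abundant transcript alone, 29 after centring by length class and 13 with equal Actb (a factor of 1.32). The difference between the median of the members and that of the expressed genes lay between -0.25 and -0.22 under these settings, except for -0.11 after centring by length. The count of members at least 1.5-fold lower, 2 as reported, was 3 with a pseudocount of 0.1 (Plxnd1 at -0.66 added), 0 with equal Actb, 1 with the most abundant transcript (Sema6a, with Sema4d lost), 11 at a log2 ratio of 0.32 and 0 at 2-fold. The count of members at least 1.5-fold higher, 0 as reported, was 1 with a pseudocount of 0.1, with equal Actb and at a log2 ratio of 0.32. With equal Actb the median log2 ratio was 0.14 for all members, 0.32 for Sema3, -0.029 for Sema4, 0.20 for Sema5, 0.069 for Sema6, 0.11 for Sema7, 0.13 for plexins and 0.21 for neuropilins. Under the same scaling it was 0.20 for effectors, 0.23 for Slits and Robos, 0.27 for netrins, 0.14 for ephrins, 0.25 for oligodendrocyte, 0.20 for progenitor, 0.26 for immature neuron, 0.15 for striatal, -0.082 for thalamic, 0.55 for hypothalamic, 0.27 for endothelial, 0.024 for fibroblast, 0.56 for microglial, 0.28 for astrocyte and 1.04 for red blood cell markers. After centring by length class it was -0.10 for plexins, 0.0091 for Slits and Robos, -0.024 for astrocyte and 0.55 for red blood cell markers. The shifts with equal Actb follow from the construction, which multiplies every pubertal FPKM by the same factor. No paired analysis was possible because each stage has 1 column. Leaving out transcripts under 1000 nt and scaling to equal Gapdh (a factor of 0.914) were added after the data were seen; with equal Gapdh 3 members were at least 1.5-fold lower and 0 higher. Depth limits the members with few fragments most, such as Sema3b with 63 and 80.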
